A study of Mus musculus with 4 samples.

Results

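The leukocytes of B16-F10 tumours from mice given a CD40 antibody were set beside those from mice given a PD1 antibody, within 5 classes of cells: CD8 T cells, natural killer (NK) cells, regulatory T cells (Treg), mononuclear phagocytes and neutrophils. The comparison holds 17844 of the 35411 cells kept in all, 7906 from the CD40 library and 9938 from the PD1 library. A barcode was kept with at least 300 detected genes and at most 10% mitochondrial UMIs (unique molecular identifiers, each standing for 1 captured RNA molecule). Cells were then placed in a class by marker transcripts alone, such as at least 3 of 6 T cell genes, and cells that met the gates of more than 1 lineage were left out. A class is therefore a gate and not an isolated cell type.

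B16-F10 is a mouse melanoma line, and each library pooled tumours of 6 mice. Treatment fell on days 8 and 11 and harvest on day 14. The CD40 group received CD40 antibody into the tumour and the PD1 group PD1 antibody intravenously, so antibody and route cannot be told apart. The control group was treated with IgG, and the combination group received both antibodies. The labels allow dilution buffer in place of the CD40 antibody and IgG in place of the PD1 antibody, and do not state which of these each single-agent group received; they name no mouse strain, sex or age. Live CD45-positive cells were sorted before 5′ droplet sequencing. With 1 library per group there is no replicate, hence no test and no p-value. Intervals are 95% intervals for counting error only, and differences between mice, injections or library preparations are outside them. For gene levels and ratios, differences between cells are outside them too, and a gene held by few cells has too narrow an interval.

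CD40 is a receptor on dendritic cells, macrophages and B cells that helper T cells engage through CD40 ligand, and its engagement licenses antigen-presenting cells to prime CD8 T cells. PD1 is an inhibitory receptor on activated T cells, and antibodies against it relieve inhibition delivered by PD-L1 and PD-L2. Activated T and NK cells secrete interferon gamma, which induces guanylate-binding proteins, antigen presentation genes and the chemokines CXCL9 and CXCL10 in neighbouring myeloid cells.

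Sequencing depth differed between the libraries and between classes. The 4 libraries held 117735875 to 164755549 UMIs, with 14833 UMIs per kept cell at the median in the CD40 library and 11897 in the PD1 library. Phagocytes were deeper in the CD40 library (median 20944 against 13405 UMIs), as were NK cells (11187 against 6198) and neutrophils (3820 against 2192), whereas CD8 T cells were deeper in the PD1 library (15737 against 12965). Levels are therefore given as CPM, the UMIs of a gene divided by all UMIs of the class in that library, per 1000000 UMIs, and shares of cells with a transcript only after each cell was thinned to a fixed number of UMIs. The libraries shared 109 cell barcodes, 1.31% of those deposited for CD40 and 1.07% of those for PD1, within the 94 to 144 shared by other pairs. The melanoma gate held 17 CD40 and 13 PD1 cells.

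Of the 5 classes, CD8 T cells and neutrophils were more frequent with CD40 antibody and Treg less frequent. CD8 T cells made up 22.2% (21.3 to 23.1) of the kept cells after CD40 antibody and 9.98% (9.40 to 10.6) after PD1 antibody, a 2.22-fold difference. They were 7.77% (7.19 to 8.39) of control cells and 30.1% (29.2 to 31.1) after both antibodies. Treg, which restrain other T cells, went the other way at 1.53% (1.27 to 1.83) with CD40 antibody and 4.17% (3.78 to 4.58) with PD1 antibody, 2.72-fold more with PD1 antibody. The CD40 value lay beside that of the combination, 1.49% (1.26 to 1.75), and the PD1 value was nearer to the control, 5.49% (5.00 to 6.02). Set against each other, 1753 CD8 T cells and 121 Treg were counted with CD40 antibody, and 992 and 414 with PD1 antibody.

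Neutrophils, short-lived granulocytes, were 3.40-fold more frequent with CD40 antibody, at 5.74% (5.24 to 6.28) against 1.69% (1.45 to 1.96). The combination had 11.2% (10.6 to 11.9) and control tumours 2.57% (2.24 to 2.95). Mononuclear phagocytes were the largest class in both, at 43.2% (42.1 to 44.3) and 52.3% (51.3 to 53.3). NK cells stood at 5.34% (4.85 to 5.86) and 6.98% (6.49 to 7.50). These values are shares of 1 whole, so a larger class lowers the others: with phagocytes taken out of the denominator, an alternative chosen after seeing the data, the log2 ratio of CD40 to PD1 shares went from 1.15 to 0.90 for CD8 T cells and from -0.39 to -0.64 for NK cells. Near the neutrophil threshold, 118 CD40 and 54 PD1 cells had exactly 4 of the 8 markers and 246 and 163 had 3. The gate was applied without thinning, and gated neutrophils had median depths of 3820 and 2192 UMIs. Shallower cells pass such a gate less readily, and the part of depth in the 3.40-fold difference was not tested.

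**Figure D1:**
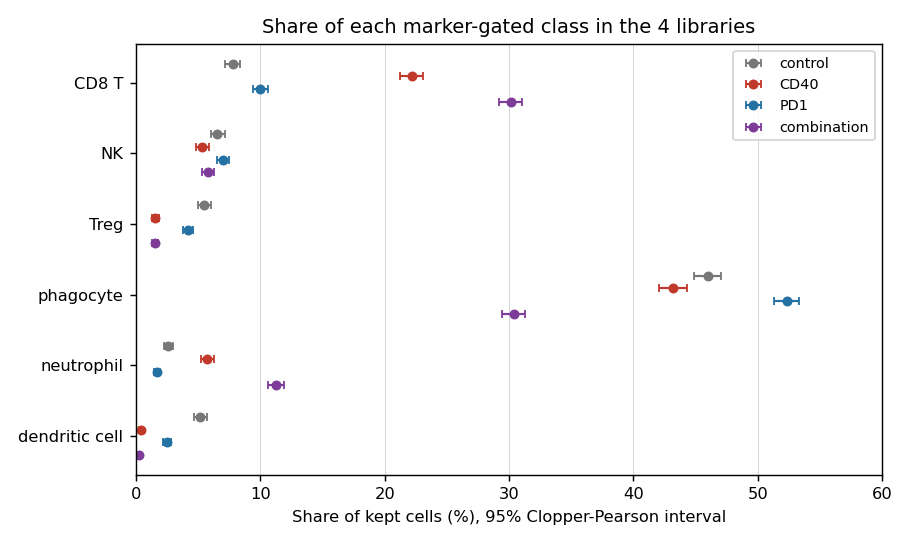
Share of kept cells (%, horizontal axis) in 6 marker-gated classes for the 4 libraries, with 95% Clopper-Pearson intervals. CD8 T cells and neutrophils are more frequent in the CD40 than in the PD1 library, and Treg and dendritic cells less frequent.

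In CD8 T cells the libraries differed in which cytotoxic transcripts they carried. Of 11611 genes with at least 50 UMIs over both libraries, 264 (2.27%) were at least 2-fold higher with CD40 antibody and 251 (2.16%) at least 2-fold higher with PD1 antibody. Among 18 cytotoxic effector genes 5 were at least 2-fold higher with CD40 antibody and 3 with PD1 antibody, with a median log2 ratio of 0.08, against 0.03 over all genes tested. Granzyme K, granzyme A and Klrg1 belonged to the first group, and granzyme B, perforin and Ccl3 to the second. All 5 genes of the granzyme C to G cluster were lower with CD40 antibody, 4 of them at least 2-fold (median log2 ratio -1.74).

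Gzmk encodes a trypsin-like granzyme of effector memory cells (chromosome 13, 113171608 to 113225908, GRCm38). Its level was 48.4 CPM in control tumours, 279 after CD40 antibody, 103 after PD1 antibody and 409.7 after both. The CD40 and combination libraries were thus the high ones, and the log2 ratio of CD40 to PD1 was 1.44 (1.37 to 1.51). After thinning to 4000 UMIs per cell, a Gzmk UMI was found in 48.2% (45.8 to 50.6, 821 of 1703 cells) with CD40 antibody and in 24.0% (21.4 to 26.8, 233 of 970 cells) with PD1 antibody, with 50 and 22 shallower cells left out. In phagocytes, which should lack it, the share at the same depth was 0.177% and 0.0978%, from median depths of 20944 and 13405 UMIs. Without thinning it was found in 65.2% and 43.3% of CD8 T cells.

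The same order of libraries held for Gzma, a second trypsin-like granzyme, at 29.5 CPM in control tumours, 445 after CD40 antibody, 159 after PD1 antibody and 697 after both (log2 ratio 1.48). Klrg1, an inhibitory receptor of short-lived effector cells, was nearly absent from the control at 2.79 CPM and reached 56.0 CPM after CD40 antibody and 8.48 CPM after PD1 antibody (log2 ratio 2.73, interval 2.49 to 2.97). Tnf, the inflammatory cytokine, and Gzmm, a further granzyme, were the remaining genes of the list at least 2-fold higher, with log2 ratios of 1.15 and 1.14. Ifng, the transcript of interferon gamma itself, differed little at 559 against 615 CPM (log2 ratio -0.14, interval -0.17 to -0.10), and both exceeded the 275 CPM of the control.

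Granzyme B and perforin, the apoptosis-inducing protease and the pore-forming protein of cytotoxic granules, were higher with PD1 antibody. Gzmb was measured at 999 CPM in control tumours, 1262 after CD40 antibody, 3516 after PD1 antibody and 3047 after both. Prf1 stood at 462 CPM in control tumours, 446 after CD40 antibody, 1408 after PD1 antibody and 897 after both. In level both were therefore near the control with CD40 antibody alone and high in the PD1 and combination libraries. The log2 ratios were -1.48 and -1.66 (-1.69 to -1.63). The gap between the antibodies was in level more than in the number of positive cells. At 4000 UMIs, 68.8% (66.5 to 71.0) of CD40 and 75.8% of PD1 cells had a Gzmb UMI (79.0% and 80.3% unthinned), against 1.15% and 2.66% of phagocytes. The share was 44.9% (40.7 to 49.1) in the control and 79.6% in the combination, so the CD40 share, unlike the level, lay well above the control. Ccl3, an inflammatory chemokine, followed at 972 against 2336 CPM.

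The granzyme C to G genes, a family of neighbouring granzymes on chromosome 14 found in strongly stimulated T and NK cells, were concentrated in few cells. Gzmd stood at 192 CPM in control tumours, 102 after CD40 antibody, 477 after PD1 antibody and 307 after both (log2 ratio -2.23, interval -2.29 to -2.17), and 50% of its UMIs came from 9 CD40 and 12 PD1 cells. Gzmc, at 978 CPM in control tumours, 341 after CD40 antibody, 1136 after PD1 antibody and 508 after both, was lowest with CD40 antibody. Gzme (94.5 against 339 CPM) and Gzmf (646 against 1725 CPM) showed the same direction, and Gzmg (41.0 against 44.7 CPM) was close to equal. The near-identical sequences of these genes make the split of UMIs among them uncertain. By contrast, 145 CD40 and 79 PD1 cells held 50% of the Gzmb UMIs.

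**Figure D2:**
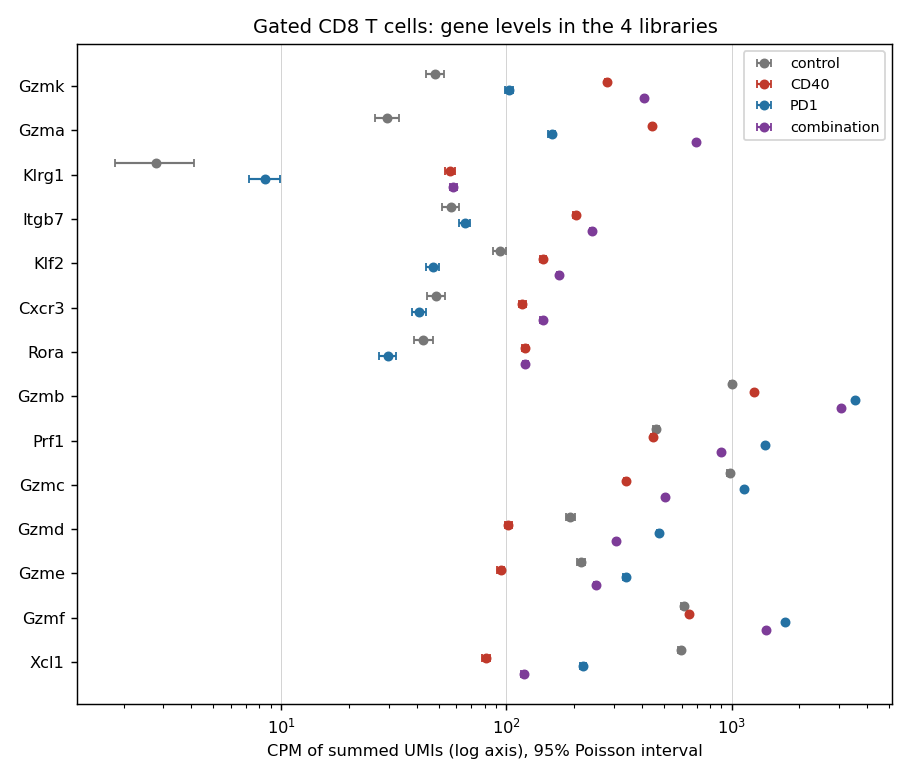
CPM of summed UMIs (log axis) of 14 genes in gated CD8 T cells of the 4 libraries, with 95% Poisson intervals. Gzmk, Gzma, Klrg1, Itgb7, Klf2, Cxcr3 and Rora are higher in the CD40 than in the PD1 library, and Gzmb, Prf1, Gzmc to Gzmf and Xcl1 lower.

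Several genes of migration were higher in CD8 T cells of the CD40 library. Of 16 homing and residency genes, 4 were at least 2-fold higher with CD40 antibody and 1 with PD1 antibody (median log2 ratio 0.71). Itgb7, an integrin chain that pairs with alpha 4, was at 56.6 CPM in control tumours, 203 after CD40 antibody, 65.5 after PD1 antibody and 240.4 after both (log2 ratio 1.63, interval 1.54 to 1.72). Cxcr3, the receptor for CXCL9 and CXCL10, was at 48.9 CPM in control tumours, 118 after CD40 antibody, 40.9 after PD1 antibody and 145 after both (log2 ratio 1.53, interval 1.41 to 1.64). Klf2, a transcription factor of recirculating lymphocytes counted in the naive list, was at 93.6 CPM in control tumours, 145 after CD40 antibody, 47.1 after PD1 antibody and 171 after both, so that the PD1 library alone lay below the control. Zfp683, a residency factor, and S1pr5, an egress receptor, were the others higher with CD40 antibody (log2 ratios 1.14 and 1.81). The gene of the list higher with PD1 antibody was Ccr8, a chemokine receptor, at 8.76 against 40.6 CPM (log2 ratio -2.21).

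Further transcripts higher with CD40 antibody were Rora, a nuclear receptor (121 against 29.7 CPM), Furin, a proprotein convertase (62.9 against 13.2 CPM), Ckb, the brain-type creatine kinase (55.9 against 10.9 CPM), Rasgrp2, an activator of integrin signalling (62.1 against 19.7 CPM), Ripor2 (155 against 53.9 CPM) and Emb, an adhesion protein (151 against 60.6 CPM). Their log2 ratios lay between 1.32 and 2.35. With equal weight per cell the log2 ratio was 0.93 for Klf2, 0.95 for Cxcr3 and 0.65 for Emb, short of 2-fold, and with dividing cells left out 0.76 for Klf2, 0.93 for Ripor2 and 0.68 for Emb. After thinning Cxcr3 was at 0.84 and Emb at 0.66.

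Inhibitory receptors differed little between the antibodies. Of 18 such genes, 1 was at least 2-fold higher with PD1 antibody (Cd200, an immunoregulatory ligand, 13.6 against 34.0 CPM) and none with CD40 antibody, with a median log2 ratio of -0.24. Pdcd1, which encodes PD1, stood at 422 CPM in control tumours, 453 after CD40 antibody, 525 after PD1 antibody and 479 after both. Havcr2 and Lag3, co-inhibitory receptors, were at 155 against 234 CPM and 348 against 496 CPM. Tox, a transcription factor of exhausted cells, was at 419.9 against 411 CPM (log2 ratio 0.03), below the 552 CPM of the control in both. A Pdcd1 UMI was found at 4000 UMIs in 68.3% and 74.3% of cells (85.6% and 84.9% unthinned), against 0.206% and 0.411% of phagocytes.

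The list of 15 naive and stem-like genes split evenly, with 2 at least 2-fold higher in each library: Klf2 and Lef1 with CD40 antibody, Ccr7 and Xcl1 with PD1 antibody. Cells with at least 3 of 4 naive or stem-like marker genes were nevertheless less frequent with CD40 antibody. At 4000 UMIs they were 2.99% (2.24 to 3.92) against 8.45% (6.78 to 10.4) of CD8 T cells, beside 15.9% in the control and 2.14% in the combination. With such cells left out, 4 of 14 list genes were at least 2-fold higher with CD40 antibody and 2 with PD1 antibody (median 0.60). Xcl1, a chemokine that attracts cross-presenting dendritic cells, was at 594 CPM in control tumours, 81.2 after CD40 antibody, 219.5 after PD1 antibody and 119.5 after both, highest in the control.

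Several transcripts higher with PD1 antibody rested on few cells. Ccl1, a chemokine ligand of CCR8, was at 373 CPM in control tumours, 26.4 after CD40 antibody, 89.4 after PD1 antibody and 11.9 after both, and 7 PD1 cells held 50% of its UMIs there. Penk, the precursor of enkephalins, was at 33.5 against 93.0 CPM, from 4 CD40 and 5 PD1 cells for 50% of UMIs, and with dividing cells left out its log2 ratio went from -1.47 to 0.29. Eno3, a muscle-type enolase, was more evenly spread at 25.5 against 71.6 CPM. T cell receptor signal genes (1 of 15 at least 2-fold higher with CD40 antibody, Egr3, and 0 with PD1 antibody), cytokine receptors (0 of 17 in either direction), glycolysis genes (0 of 15) and proliferation genes (0 of 18) showed little difference. Dividing cells were 30.6% and 32.8% of CD8 T cells after thinning (42.1% and 44.8% unthinned).

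In NK cells the cell cycle genes differed. Of 9467 genes compared, 397 (4.19%) were at least 2-fold higher with CD40 antibody and 339 (3.58%) with PD1 antibody. Of 18 proliferation genes 17 were at least 2-fold higher with CD40 antibody, with a median log2 ratio of 2.73 against -0.04 over all genes. Mki67, a nuclear protein of cells in cycle, was measured at 26.3 CPM in control tumours, 266 after CD40 antibody, 32.6 after PD1 antibody and 223 after both. Dividing cells, with at least 2 of 8 cycle genes, were 22.4% (18.4 to 26.8, 90 of 402 cells) of NK cells in the CD40 library and 2.13% (1.14 to 3.62, 13 of 610 cells) in the PD1 library at 4000 UMIs. The control had 1.94% and the combination 17.6%, so the libraries without CD40 antibody were low and those with it high. Unthinned, the shares were 29.6% and 4.47%, and thinning left out 20 and 84 shallower cells. At that depth 1.5% of CD40 neutrophils (3 of 200, median depth 3820 UMIs) and 0 of 15 PD1 neutrophils (median 2192), a post-mitotic cell type, passed the same rule.

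**Figure D3:**
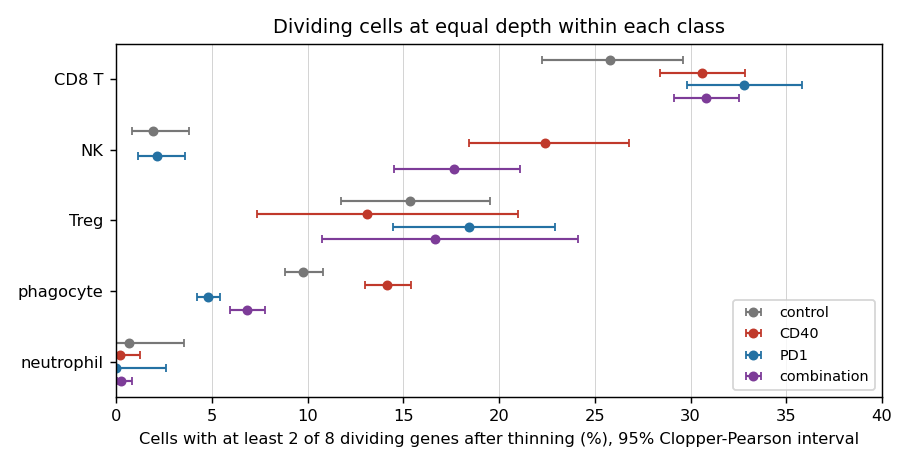
Cells with at least 2 of 8 cell cycle genes (%, horizontal axis) after thinning each class to equal depth, in the 4 libraries, with 95% Clopper-Pearson intervals. NK cells reach 22.4% after CD40 antibody and 17.6% after both, against 2.13% after PD1 antibody; phagocytes reach 14.2% against 4.80%.

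Some receptors of NK cells were higher in the CD40 library and others lower, and the 22 NK maturation and receptor genes split into 11 higher and 11 lower. Klrg1, a receptor of terminally mature NK cells, was at 64.2 CPM in control tumours, 565 after CD40 antibody, 105 after PD1 antibody and 535 after both (log2 ratio 2.43, interval 2.30 to 2.57). Cx3cr1, a chemokine receptor of mature cytotoxic cells, was at 8.28 CPM in control tumours, 110.0 after CD40 antibody, 24.9 after PD1 antibody and 63.8 after both, and Gzmk at 10.4 CPM in control tumours, 90.7 after CD40 antibody, 18.0 after PD1 antibody and 184 after both. Cd27, a receptor of immature NK cells, was at 93.7 CPM in control tumours, 28.4 after CD40 antibody, 82.2 after PD1 antibody and 32.8 after both (log2 ratio -1.53, interval -1.81 to -1.26). For each of these genes the control lay on the side of the PD1 library. Granzyme A and perforin were moderately higher at 18902 against 11115 CPM and 1706 against 1169 CPM, while granzyme B was at 2487 against 2903 CPM (log2 ratio -0.22), unlike in CD8 T cells; the difference between the classes was not tested. At least 2-fold higher were 2 of the 22 in each direction, Klrg1 and S1pr5 with CD40 antibody and Cd27 and Tigit with PD1 antibody (median -0.0031).

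Gpx8, a glutathione peroxidase family member of the endoplasmic reticulum (chromosome 13, 113042753 to 113046410), was at 3.25 CPM in control tumours, 96.4 after CD40 antibody, 8.10 after PD1 antibody and 71.1 after both, and its log2 ratio of 3.57 (3.11 to 4.08) was 3.43 with dividing cells left out. Residency genes were also higher with CD40 antibody, 5 of 14 at least 2-fold and 0 with PD1 antibody. They included Zfp683, the residency factor Hobit (27.1 against 2.23 CPM), Cxcr6 (64.7 against 17.2 CPM) and Itga1 (74.7 against 25.1 CPM). Pdcd1 was low in NK cells but measurable at 18.5 against 4.45 CPM.

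Tcf7, Bach2 and Satb1, transcription factors of the naive and stem-like list, were lower in NK cells with CD40 antibody, while Klf2 (643 against 307 CPM) and Id3 (9.46 against 1.82 CPM) of the same list were higher. Tcf7 was at 184 CPM in control tumours, 38.6 after CD40 antibody, 134 after PD1 antibody and 63.1 after both (log2 ratio -1.80, interval -2.03 to -1.57). Bach2, a repressor of effector genes, was at 235 CPM in control tumours, 65.7 after CD40 antibody, 211 after PD1 antibody and 66.5 after both, and Satb1, a chromatin organiser, at 355 CPM in control tumours, 138 after CD40 antibody, 384 after PD1 antibody and 163 after both. For these 3 genes the PD1 library stayed near the control and the combination near the CD40 library. Gamma-delta T cell markers (Trdc and Tcrg-C1, both detected in every library) had the same order in the NK gate, at 60.6, 23.9, 63.6 and 24.1 CPM in control tumours, after CD40 antibody, after PD1 antibody and after both, and their part in the result was not tested. Of the 14 naive and stem-like genes measured, 6 were at least 2-fold higher with PD1 antibody and 2 with CD40 antibody (median -0.97; -0.61 with dividing cells left out). Other transcripts lower with CD40 antibody were Pmepa1, an inhibitor of TGF-beta signalling (20.4 against 114 CPM), Aff3 (24.3 against 114 CPM), Fosl2, an AP-1 subunit (24.9 against 101 CPM), Crem (37.7 against 111 CPM), Gramd3 (17.1 against 65.6 CPM) and Il4ra, the interleukin 4 receptor (21.0 against 60.5 CPM).

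Type I interferon response genes were lower in NK cells of the CD40 library in 14 of 15 cases, 10 of them at least 2-fold (median log2 ratio -1.44). Ifit1, an antiviral RNA-binding protein, was at 20.1 CPM in control tumours, 1.67 after CD40 antibody, 20.2 after PD1 antibody and 6.06 after both, and Isg15, a ubiquitin-like modifier, at 119 CPM in control tumours, 46.7 after CD40 antibody, 95.3 after PD1 antibody and 67.6 after both. Irf7, the regulator of type I interferon production, was at 31.3 against 89.3 CPM. Interferon gamma response genes had a smaller median of -0.70, with 6 of 21 at least 2-fold lower, Cxcl9 and Cxcl10 of myeloid cells among them, and none at least 2-fold higher. Without dividing cells the medians were -1.07 (9 of 15) and -0.46 (3 of 20), while the genes at least 2-fold higher with CD40 antibody numbered 108 instead of 397. Phagocyte markers summed to 301 CPM in CD40 and 514 in PD1 NK cells, 8 of 8 detected in both, and dendritic cell markers to 13.9 (Flt3, Xcr1, Clec9a and Cd209a at 0) and 53.8 CPM. Their part in the interferon result was not tested.

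The named cell cycle genes of NK cells were Kif11, Ccna2, Birc5, Hist1h1b, Ccnb2, Ube2c, Cdca3 and Mki67, with log2 ratios between 3.03 and 3.86. Ccl1 also met the rule, with 94.2 CPM in CD40 NK cells and no UMI in PD1 NK cells. Against a floor of 3 UMIs this is 155-fold (log2 ratio 7.28, lower bound 6.97). That value rested on 1 cell, which held 99.4% of its 508 UMIs, and 3 UMIs remained without it.

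Treg were few in the CD40 library (121 cells, 1081684 UMIs) against 414 cells and 3691091 UMIs in the PD1 library, and intervals are correspondingly wide. Of 8297 genes compared, 79 (0.952%) were at least 2-fold higher with CD40 antibody and 194 (2.34%) with PD1 antibody. Among the 4088 genes with at least 200 UMIs these were 16 and 19, close to even. The part of the uneven depth in the larger PD1 count was not tested. The core genes of the lineage were at similar levels: Ctla4, an inhibitory receptor, at 1297 against 1352 CPM, Il2ra, the high-affinity interleukin 2 receptor chain, at 418 against 453 CPM, and Ikzf2, the transcription factor Helios, at 1255 against 1503 CPM. Of 21 Treg function genes, 2 were at least 2-fold higher with CD40 antibody and 3 with PD1 antibody (median 0.06, against -0.03 over all genes). The 3 were Nt5e, Areg and Ccr4, and the 2 were Il1rl1 and Ebi3.

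Nt5e encodes CD73, which makes adenosine, an inhibitor of T cells (chromosome 9, 88327197 to 88372092). It stood at 68.2 CPM in control tumours, 12.9 after CD40 antibody, 60.7 after PD1 antibody and 21.0 after both, low in both libraries with CD40 antibody, with a log2 ratio of -2.23 (-3.12 to -1.45). Nrp1, a co-receptor found on thymic Treg, was at 47.6 CPM in control tumours, 29.6 after CD40 antibody, 74.2 after PD1 antibody and 60.8 after both (log2 ratio -1.33, interval -1.90 to -0.80). Areg, the tissue-repair ligand amphiregulin, was at 42.6 CPM in control tumours, 33.3 after CD40 antibody, 88.3 after PD1 antibody and 163 after both, but 1 cell held 30.4% of its UMIs in the PD1 library. A UMI of Nt5e was found at 4000 UMIs in 8.41% (3.92 to 15.4, 9 of 107 cells) and 19.6% (15.5 to 24.2, 67 of 342 cells) of Treg (10.7% and 32.6% unthinned), with 14 and 72 shallower cells left out. The intervals lie next to each other without overlap, and in phagocytes the shares at that depth were 1.83% and 1.06%, from median depths of 20944 and 13405 UMIs against 7424 and 6770.5 in Treg.

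Higher with CD40 antibody were Serpina3f, a serine protease inhibitor with close copies beside it in the genome that make its count uncertain, at 47.6 CPM in control tumours, 157 after CD40 antibody, 34.9 after PD1 antibody and 93.0 after both (log2 ratio 2.17, interval 1.83 to 2.51), and Bhlhe40, a transcription factor of cytokine-producing T cells, at 96.6 CPM in control tumours, 332 after CD40 antibody, 154 after PD1 antibody and 256 after both. Ebi3, a subunit of interleukin 35, was at 82.9 CPM in control tumours, 148 after CD40 antibody, 62.0 after PD1 antibody and 79.7 after both, with the CD40 library alone above the control. Sdc4, a heparan sulphate proteoglycan (147 against 43.3 CPM), Furin (149.8 against 50.9 CPM), Rora (358 against 170.4 CPM), Ckb (129 against 56.6 CPM), Rbm47 (58.2 against 18.2 CPM) and Dscam (68.4 against 18.2 CPM) were higher too. Furin, Rora and Ckb were also among the genes named in CD8 T cells. Ctla2a met the same rule, with 42.7% of its CD40 UMIs in 1 cell. Short of 2-fold were Rora (log2 ratio 0.90) and Ctla2a (0.35) without the top cell, Rora (0.82) and Ctla2a (0.65) with equal weight per cell, Bhlhe40 (0.86) with stricter gates and Ebi3 (0.93) after thinning.

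T helper 1 genes were higher in CD40 Treg in 13 of 14 cases, 3 of them at least 2-fold (median 0.38; 0.02 after thinning, on fewer UMIs). The 3 were Ifng (43.5 against 15.7 CPM), Il18rap, an interleukin 18 receptor chain (49.0 against 17.9 CPM), and Il12rb2, an interleukin 12 receptor chain (115 against 54.7 CPM). Glycolysis and hypoxia genes were higher in 14 of 14 cases with none at least 2-fold (median 0.44), and with cells of more than 1 lineage kept the median was -0.060. Proliferation genes were lower in 18 of 18 cases, 1 of them at least 2-fold (median -0.50), and dividing cells were 13.1% (7.34 to 21.0, 14 of 107 cells) against 18.4% (14.5 to 22.9, 63 of 342 cells) after thinning (16.5% and 19.3% unthinned). The replication genes Mcm5, Tk1, Pclaf and Dtymk were among those named as higher with PD1 antibody, with log2 ratios of -1.19 to -1.07, and Mcm5 was at 0.066 with dividing cells left out. Rad51b, Rnf213 and Pcyt1a completed that list. Without the 5% of cells with most UMIs Mcm5, Tk1, Pclaf and Dtymk were at -0.62, -0.47, -0.44 and -0.94, short of 2-fold.

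Genes of the marker lists of other cells were not equal in the Treg gate. Neutrophil markers summed to 432 CPM in the CD40 library (6 of 8 detected) and 261 CPM in the PD1 library (5 of 8). Cxcr2 and Retnlg were at 0 in both, and S100a8 was also at 0 in the PD1 library. Phagocyte markers summed to 658 and 447 CPM, 8 of 8 detected in both. Whether Treg themselves made these transcripts was not examined, and the part of such transcripts in the Treg results was not tested. With cells of more than 1 lineage kept, 188 genes were at least 2-fold higher with CD40 antibody and 178 with PD1 antibody, a share of 51.4% in place of 28.9% on the CD40 side. Sdc4, Ebi3, Bhlhe40 and Rora were then at 0.95, 0.80, 0.81 and 0.76, Ckb at 0.21, Ctla2a at 0.13 and Nrp1 at -0.37.

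Phagocytes of the CD40 library carried lower levels of interferon response genes, and higher levels of Cd5l and Slc40a1. Of 13321 genes compared, 556 (4.17%) were at least 2-fold higher with CD40 antibody and 323 (2.42%) with PD1 antibody. Of 26 interferon gamma response genes 24 were lower with CD40 antibody, 9 of them at least 2-fold and none at least 2-fold higher (median log2 ratio -0.88, against 0.05 over all genes). Of 20 type I interferon response genes 19 were lower, 8 at least 2-fold (median -0.90). The lists are not independent, since type I interferon and interferon gamma induce many of the same genes.

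Gbp2, a guanylate-binding protein that coats intracellular pathogens, was at 309 CPM in control tumours, 462 after CD40 antibody, 1244 after PD1 antibody and 1083 after both (log2 ratio -1.43, interval -1.44 to -1.41). The PD1 and combination libraries were high, and the CD40 library lay between them and the control. Socs1, the feedback inhibitor of interferon gamma signalling, was at 112 CPM in control tumours, 125 after CD40 antibody, 356 after PD1 antibody and 311 after both (log2 ratio -1.51, interval -1.54 to -1.48), with the CD40 library near the control. Gbp5 was at 54.9 CPM in control tumours, 82.1 after CD40 antibody, 185 after PD1 antibody and 186 after both and Irf1, a transcription factor of the interferon response, at 194 against 427 CPM.

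The 250 bases before the start sites of Gbp2, Gbp5 and Socs1 are shown, on the strand of each gene from RefSeq on GRCm38.p6, as 3 examples, chosen after their values were seen, of the 9 interferon gamma response genes past 2-fold in phagocytes. They lie at chr3:142620413-142620662 (+ strand), chr3:142496684-142496933 (+ strand) and chr16:10785537-10785786 (- strand). Capitals mark matches on either strand to the gamma-activated site TTCNNNGAA, an element of interferon gamma response genes, and to the core of the interferon-stimulated response element, GAAA repeated after 2 bases of any kind.
Gbp2: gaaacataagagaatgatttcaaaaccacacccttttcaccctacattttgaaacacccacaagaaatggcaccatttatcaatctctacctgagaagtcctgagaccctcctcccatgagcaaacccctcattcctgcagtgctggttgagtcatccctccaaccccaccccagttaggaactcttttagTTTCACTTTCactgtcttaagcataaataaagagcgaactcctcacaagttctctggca
Gbp5: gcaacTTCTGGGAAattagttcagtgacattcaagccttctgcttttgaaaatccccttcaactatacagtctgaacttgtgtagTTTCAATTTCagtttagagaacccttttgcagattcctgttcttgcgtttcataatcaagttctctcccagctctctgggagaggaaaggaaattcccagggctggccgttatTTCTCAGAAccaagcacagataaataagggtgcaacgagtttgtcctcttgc
Socs1: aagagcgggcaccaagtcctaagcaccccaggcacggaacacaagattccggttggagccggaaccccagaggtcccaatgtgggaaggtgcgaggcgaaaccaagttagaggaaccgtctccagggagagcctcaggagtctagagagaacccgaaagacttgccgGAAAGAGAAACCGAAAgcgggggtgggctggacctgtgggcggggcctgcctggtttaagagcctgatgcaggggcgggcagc
Gbp2 holds the response element core with its first base at -59 from the start site. Gbp5 holds TTCNNNGAA at -245 and -52 and the core at -165. Socs1 holds the core at -83 and -77, and these matches overlap. In windows of 300 bases, 250 before and 50 after the start site, TTCNNNGAA occurred in 6 of the 16 list genes with an entry (37.5%) and in 9.55% of 27025 genes, and the core in 10 of 16 (62.5%) and 3.99%. A match describes the letters and not binding.

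Chemokines and inflammatory cytokines followed the same direction. Cxcl9, a ligand of CXCR3, was at 437 CPM in control tumours, 739 after CD40 antibody, 1270.0 after PD1 antibody and 964 after both (log2 ratio -0.78, interval -0.80 to -0.77), and Cxcl10, a second CXCR3 ligand, at 418 CPM in control tumours, 477 after CD40 antibody, 1142 after PD1 antibody and 792 after both (log2 ratio -1.26, interval -1.28 to -1.24). Il1b, the transcript of interleukin 1 beta, was at 211 CPM in control tumours, 138 after CD40 antibody, 368 after PD1 antibody and 479 after both, below the control with CD40 antibody alone. Of 16 inflammatory cytokine genes 5 were at least 2-fold higher with PD1 antibody and none with CD40 antibody (median -0.74), and of 11 chemokine genes 3 and none (median -0.57). Ccl5, another lymphocyte attractant, was at 65.8 against 199 CPM. At 5000 UMIs, 38.4% (36.7 to 40.0, 1293 of 3369 cells) of CD40 and 52.3% (50.9 to 53.7, 2626 of 5017 cells) of PD1 phagocytes had a Cxcl9 UMI (51.2% and 59.5% unthinned). In CD8 T cells, at 4000 UMIs, these shares were 1.76% and 2.99%, from median depths of 12965 and 15737 UMIs.

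Other interferon gamma targets were at closer levels. Iigp1, an immunity-related GTPase, was at 249.9 against 237 CPM (log2 ratio 0.08), and Nos2, the inducible nitric oxide synthase, at 22.3 CPM in control tumours, 87.7 after CD40 antibody, 72.9 after PD1 antibody and 363 after both. For Nos2 both single agents exceeded the control and the combination exceeded both. In the type I list, Isg15 was at 516 CPM in control tumours, 328 after CD40 antibody, 843 after PD1 antibody and 611 after both and Ifit2 at 79.9 CPM in control tumours, 49.9 after CD40 antibody, 137 after PD1 antibody and 86.6 after both, each lowest with CD40 antibody. Isg20, an exonuclease, had the most negative log2 ratio of that list at -2.33 (13.1 against 65.7 CPM).

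**Figure D4:**
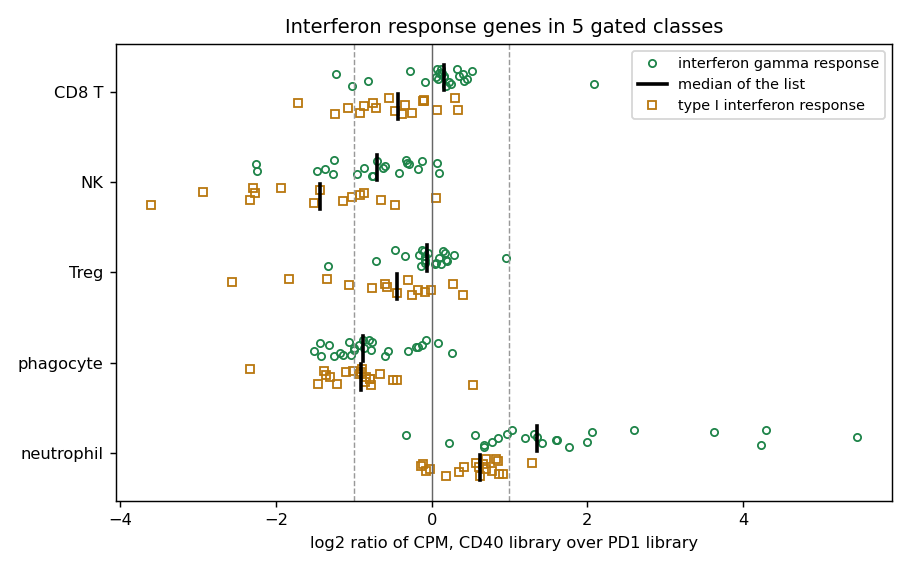
Log2 ratio of CPM, CD40 over PD1 library (horizontal axis), for each measured interferon gamma (circles) and type I interferon (squares) response gene in 5 classes; thick bars are list medians and dashed lines mark 2-fold. The interferon gamma medians are -0.88 in phagocytes and 1.36 in neutrophils.

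Surface molecules of antigen presentation were lower in phagocytes of the CD40 library as well. Cd40 itself, the target of the CD40 antibody, was at 58.4 CPM in control tumours, 71.1 after CD40 antibody, 128 after PD1 antibody and 113 after both, and Cd86, a costimulatory ligand of CD28, at 111 against 208 CPM. Of 17 costimulation and CD40 signalling genes 3 were at least 2-fold higher with PD1 antibody and none with CD40 antibody (median -0.33). Cd274, which encodes PD-L1, was at 139 CPM in control tumours, 205 after CD40 antibody, 301 after PD1 antibody and 344 after both, and Pdcd1lg2, which encodes PD-L2, at 21.1 CPM in control tumours, 15.0 after CD40 antibody, 48.3 after PD1 antibody and 33.4 after both (log2 ratio -1.68, interval -1.77 to -1.59). MHC class II genes were lower in 11 of 12 cases, 2 at least 2-fold (median -0.59), with H2-Ab1 at 2103 against 3078 CPM; within non-classical monocyte-side cells alone this median was 0.088. MHC class I genes differed less, with 0 of 13 at least 2-fold (median -0.30).

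The interferon difference varied over the kinds of phagocyte. Cells were split by C1q transcripts into a macrophage side (41.8% of CD40 and 34.6% of PD1 phagocytes) and otherwise into a non-classical monocyte side (19.9% and 17.7%) and a classical monocyte side (28.3% and 43.1%). The median log2 ratio of the interferon gamma list was -0.52 on the macrophage side, -1.06 on the classical side and -0.48 on the non-classical side. Cxcl9 was nearly level on the macrophage side, at 964 against 1118 CPM (log2 ratio -0.21). On the classical side it was at 464 against 1662 CPM (-1.84) and on the non-classical side at 157 against 957 CPM (-2.61), where the control held 381 and 156. Gbp2 was at -0.89 on the macrophage side and -0.88 on the non-classical side, short of 2-fold. Differences between the sides were not tested.

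Other transcripts higher with PD1 antibody were Cnn3, an actin-binding calponin, at 35.4 CPM in control tumours, 32.5 after CD40 antibody, 146 after PD1 antibody and 103 after both (log2 ratio -2.16, interval -2.22 to -2.10), and Tmem176b, an intracellular ion channel of myeloid cells, at 100.4 CPM in control tumours, 32.4 after CD40 antibody, 116 after PD1 antibody and 33.5 after both. Cnn3 was higher than the control in the PD1 and combination libraries, while Tmem176b was below the control in the CD40 and combination libraries. Tmem176a, the neighbouring paralogue (16.5 against 61.4 CPM), Tagap (17.1 against 62.0 CPM), Flt1, a VEGF receptor (17.3 against 53.1 CPM), Slco3a1 (37.7 against 102 CPM) and Tspan13 (52.5 against 138 CPM) had log2 ratios of -1.90 to -1.39. Dendritic cell markers summed to 5.94 CPM in CD40 and 54.2 CPM in PD1 phagocytes, 8 of 8 detected in both, beside 51.9 in the control. Tmem176a, Tmem176b and Tagap were higher in dendritic cells than in phagocytes, and the part of dendritic cell RNA in these results was not tested.

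The scavenger gene Cd5l, a secreted macrophage protein that supports macrophage survival, showed the largest log2 ratio of the named phagocyte genes (chromosome 3, 87357881 to 87371073). It was at 1.67 CPM in control tumours, 71.9 after CD40 antibody, 3.23 after PD1 antibody and 63.1 after both (log2 ratio 4.48, interval 4.30 to 4.66), low in both libraries without CD40 antibody. A Cd5l UMI was present at 5000 UMIs in 4.60% (3.92 to 5.36, 155 of 3369 cells) and 0.518% (0.339 to 0.758, 26 of 5017 cells) of phagocytes (6.03% and 1.15% unthinned). In CD8 T cells, at 4000 UMIs, it was in 1 of 1703 CD40 cells (0.0587%) and in 0 of 970 PD1 cells (interval to 0.380%). Median depths of these CD8 T cells were 12965 and 15737 UMIs. On the macrophage side Cd5l reached 119 against 6.27 CPM.

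Slc40a1, the iron exporter ferroportin, was at 13.2 CPM in control tumours, 70.6 after CD40 antibody, 6.51 after PD1 antibody and 30.2 after both (log2 ratio 3.44, interval 3.31 to 3.57), and Vcam1, an adhesion molecule of tissue macrophages, at 76.7 CPM in control tumours, 148 after CD40 antibody, 46.5 after PD1 antibody and 99.4 after both (log2 ratio 1.67, interval 1.62 to 1.72). Gpnmb, a glycoprotein of lipid-laden macrophages, was at 261 CPM in control tumours, 459.7 after CD40 antibody, 164 after PD1 antibody and 227 after both, and Acp5, a lysosomal acid phosphatase, at 63.9 CPM in control tumours, 149 after CD40 antibody, 48.7 after PD1 antibody and 108 after both. In all 4 the PD1 library was the lowest. Ctsk, an osteoclast-type cathepsin, was at 95.9 against 6.53 CPM, from 9 CD40 cells for 50% of its UMIs. Lmna, a nuclear lamin, was at 289.6 against 104 CPM, Serpinb6a at 127 against 45.3 CPM, and Lyz1 at 50.1 against 12.4 CPM, whose near-identical partner Lyz2 makes its count uncertain. Airn, at 57.8 against 19.7 CPM, lies antisense to Igf2r, and the strand setting of the counting is not given in the sources used here. Within classical monocyte-side cells Ctsk, Acp5 and Serpinb6a had log2 ratios of -0.83, -0.14 and -0.028, and Vcam1, Gpnmb and Lmna of 0.66, 0.74 and 0.73, short of 2-fold.

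**Figure D5:**
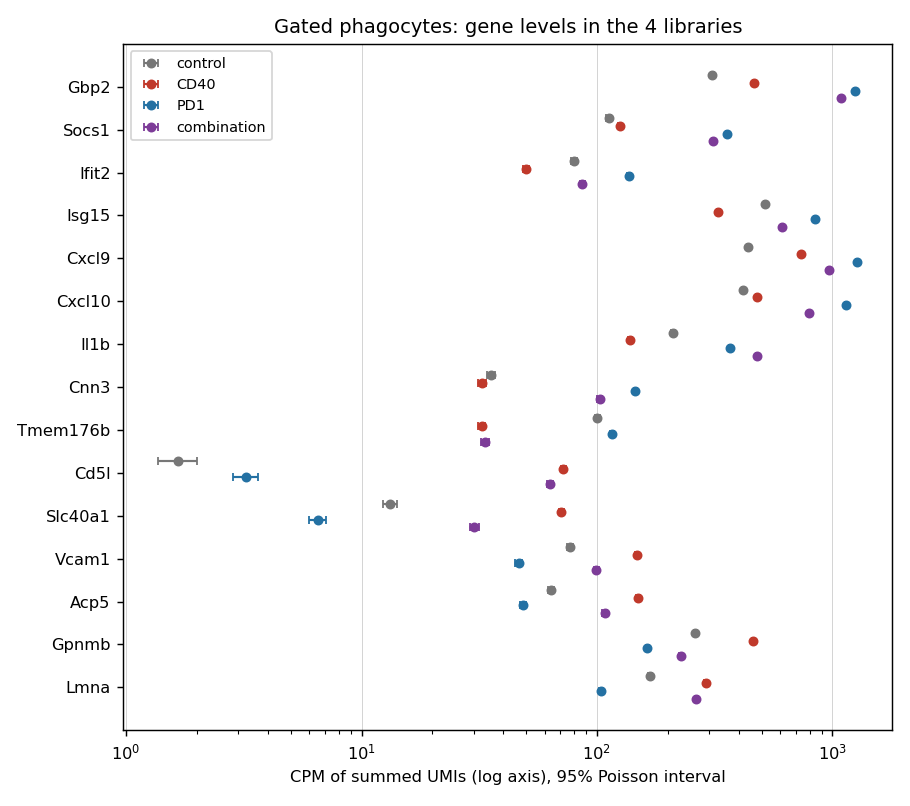
CPM of summed UMIs (log axis) of 15 genes in gated phagocytes of the 4 libraries, with 95% Poisson intervals. Gbp2, Socs1, Cxcl9, Cxcl10 and Cnn3 are lower in the CD40 than in the PD1 library, and Cd5l, Slc40a1, Vcam1, Acp5, Gpnmb and Lmna higher.

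As groups, iron handling (2 of 11 at least 2-fold higher with CD40 antibody and 1 with PD1 antibody, median 0.37), complement and scavenger genes (2 and 0 of 18, median 0.12) and lipid handling genes (1 and 0 of 15, median 0.29) had medians above 0 over all phagocytes. Within the sides the lipid median was -0.012 (macrophage), -0.0075 (classical) and -0.0072 (non-classical), and the complement median was -0.024, 0.024 and 0.085. Without dividing cells these medians were 0.18 for lipid handling and -0.082 for complement genes. The macrophage side made up 41.8% of CD40 and 34.6% of PD1 phagocytes, and its part in these medians was not tested. Apoe, a lipid carrier of macrophages, went the other way at 2767 CPM in control tumours, 1026 after CD40 antibody, 1865 after PD1 antibody and 702 after both, below the control in both. Of 19 alternative and wound-healing genes 3 were at least 2-fold higher with PD1 antibody (Chil3, Thbs1 and Retnla). Retnla, a product of interleukin 4 signalling, was at 62.0 CPM in control tumours, 0.0661 after CD40 antibody, 4.02 after PD1 antibody and 0 after both, so that all 3 treated libraries were far below the control. Arg1, which consumes arginine, was at 775 CPM in control tumours, 352 after CD40 antibody, 566 after PD1 antibody and 654 after both and Mrc1, the mannose receptor, at 149 against 151 CPM.

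Phagocytes of the CD40 library also held more dividing cells, 14.2% (13.0 to 15.4, 477 of 3369 cells) against 4.80% (4.23 to 5.43, 241 of 5017 cells) at 5000 UMIs, with 9.78% in the control and 6.81% in the combination (25.3% and 8.65% unthinned). Of 18 proliferation genes 15 were at least 2-fold higher (median 1.17), among them Top2a (75.1 against 32.0 CPM) and Mki67 (74.4 against 33.9 CPM). With dividing cells left out the interferon gamma median was -0.96, with 12 of 26 genes at least 2-fold lower, and Cd5l was at 48.2 against 2.80 CPM. Neutrophil markers summed to 202 CPM in CD40 and 116 CPM in PD1 phagocytes, 8 of 8 detected in both, and their part was not tested. With cells of more than 1 lineage kept, 49.4% in place of 63.3% of the genes past 2-fold were higher with CD40 antibody.

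In neutrophils interferon gamma response genes were higher with CD40 antibody, and the difference from phagocytes was not tested. Of 4937 genes compared, 280 (5.67%) were at least 2-fold higher with CD40 antibody and 125 (2.53%) with PD1 antibody, from 454 and 168 cells with 2065750 and 429018 UMIs. Of 23 interferon gamma response genes 15 were at least 2-fold higher with CD40 antibody and none with PD1 antibody (median log2 ratio 1.36, against 0.0075 over all genes). Of 13 MHC class I presentation genes 8 were at least 2-fold higher (median 1.11). Type I interferon genes differed less, with 1 of 19 at least 2-fold higher (median 0.62).

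Gbp2 was at 102 CPM in control tumours, 1142 after CD40 antibody, 373 after PD1 antibody and 2114 after both in neutrophils (log2 ratio 1.62, interval 1.38 to 1.86), so the order of the single agents was the reverse of that in phagocytes. Gbp4, a related guanylate-binding protein, was at 3.94 CPM in control tumours, 350.0 after CD40 antibody, 18.6 after PD1 antibody and 796 after both (log2 ratio 4.23, interval 3.24 to 5.45), from 8 PD1 UMIs. Gbp8 was at 7.88 CPM in control tumours, 206 after CD40 antibody, 4.66 after PD1 antibody and 303 after both, but the annotated spans of Gbp4 and Gbp8 overlap on chromosome 5 (105115767 to 105139586 and 105014150 to 105139540), so the split between them is uncertain. At 1500 UMIs, 28.0% (23.9 to 32.4, 124 of 443 cells) of CD40 and 2.13% (0.441 to 6.09, 3 of 141 cells) of PD1 neutrophils had a Gbp4 UMI, beside 1.30% in the control and 47.1% in the combination library (CD40 and PD1 43.2% and 2.98% unthinned). Irgm1, an immunity-related GTPase, was at 65.0 CPM in control tumours, 524 after CD40 antibody, 172 after PD1 antibody and 919.6 after both. Cxcl10 did not follow, at 326 against 408 CPM.

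Antigen presentation transcripts of neutrophils differed in the same direction. H2-K1, a classical class I heavy chain, was at 656 CPM in control tumours, 2707 after CD40 antibody, 729.6 after PD1 antibody and 2382 after both (log2 ratio 1.89, interval 1.73 to 2.06). H2-Q6 and H2-Q7, nonclassical class I genes of nearly the same sequence, were at 453 against 21.0 CPM and 565 against 72.3 CPM, and the split between them is uncertain. Ly6i, a surface protein whose count is uncertain because the Ly6 family holds close copies, was at 13.8 CPM in control tumours, 944 after CD40 antibody, 79.3 after PD1 antibody and 1225 after both. Cd274, the transcript of PD-L1, was at 427 CPM in control tumours, 1286 after CD40 antibody, 748 after PD1 antibody and 2433 after both. For each of these the CD40 and combination libraries were high, and the PD1 library lay between the control and CD40 or at the control.

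The gate bears on these values. When cells that also met another lineage gate were kept, including 73 CD40 and 51 PD1 cells in the phagocyte and neutrophil gates, the interferon gamma median was 0.22, the class I median was 0.18 and Gbp4 had a log2 ratio of 1.72, with 46.7% in place of 69.1% of the genes past 2-fold on the CD40 side. Phagocyte markers within the gate as used summed to 332 CPM in the CD40 and 345 CPM in the PD1 library, 8 of 8 detected in both.

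Other neutrophil transcripts were higher with PD1 antibody. Cxcl3, a neutrophil attractant, was at 1429.6 CPM in control tumours, 508 after CD40 antibody, 2308 after PD1 antibody and 3163 after both (log2 ratio -2.18, interval -2.31 to -2.06), with 5 CD40 and 7 PD1 cells holding 50% of its UMIs. Thbs1, the matrix protein thrombospondin 1, was at 853 CPM in control tumours, 225 after CD40 antibody, 883 after PD1 antibody and 857 after both, with the CD40 library alone below the others. G0s2, an inhibitor of lipolysis, was at 998 CPM in control tumours, 509.7 after CD40 antibody, 1519.8 after PD1 antibody and 2169 after both, and Osm, the cytokine oncostatin M, at 295 CPM in control tumours, 88.1 after CD40 antibody, 256 after PD1 antibody and 319 after both. Fmnl2 (128 against 478 CPM), Fndc3a (121 against 396 CPM), Rab44 (52.3 against 189 CPM), Rdh12 (28.1 against 109.6 CPM), Suco (127 against 357 CPM) and Pdpn (21.8 against 79.3 CPM) had the same direction. The inflammatory cytokine list as a whole was mixed, with 2 of 14 at least 2-fold higher in each direction, Tnf (262 against 90.9 CPM) and Il1a (90.0 against 39.6 CPM) on the CD40 side. Of 15 neutrophil activation and tumour state genes 3 were at least 2-fold higher with CD40 antibody and 1 with PD1 antibody (median 0.0075). With cells of more than 1 lineage kept, Fmnl2, G0s2, Fndc3a, Rab44, Rdh12, Suco and Osm had log2 ratios between -0.90 and -0.42, short of 2-fold.

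Granule genes of neutrophil precursors were high in the CD40 library through very few cells. Of 15 granule and alarmin genes 6 were at least 2-fold higher with CD40 antibody (median 0.40), but 1 cell held 79.9% of the Camp UMIs, 57.0% of the Ngp, 97.6% of the Prtn3 and 40.6% of the Ltf UMIs, and 1 cell was the only one with Elane. Chil3, a chitinase-like protein, was the remaining gene (195 against 67.6 CPM). Camp, Prtn3 and Elane had no UMI in PD1 neutrophils. Against a floor of 3 UMIs Camp was 138-fold higher, and without its top cell 401 UMIs remained. Cstdc5, an inhibitor of cathepsins, had no PD1 UMI either, and 4 CD40 cells held 50% of its UMIs. With dividing cells left out the granule median was -0.010, and with cells of more than 1 lineage kept Camp was at 0.64, Ngp at 0.18 and Ltf at -1.17. With equal weight per cell Elane was at 0.43. The abundant S100a8 and S100a9, which belong to the gate, were at 29413 against 30551 CPM and 37853 against 37313 CPM.

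Across the 5 classes the interferon gamma list had median log2 ratios of 0.15 in CD8 T cells, -0.70 in NK cells, -0.06 in Treg, -0.88 in phagocytes and 1.36 in neutrophils. The type I list had medians of -0.43, -1.44, -0.44, -0.90 and 0.62 in the same order. The counts at least 2-fold higher with PD1 antibody were 2 of 23, 6 of 21, 1 of 22, 9 of 26 and 0 of 23 for the interferon gamma list, and 3 of 18, 10 of 15, 4 of 15, 8 of 20 and 0 of 19 for the type I list. Glycolysis and hypoxia genes were past 2-fold in 0 of 15 CD8 T, 0 of 14 Treg and 0 of 16 phagocyte cases, and in 2 of 13 NK and 1 of 15 neutrophil cases, all of those with PD1 antibody. Genes induced by tissue dissociation were at least 2-fold higher with PD1 antibody in 4 of 15 NK, 2 of 13 neutrophil and 1 of 16 CD8 T cases, 0 of 16 in phagocytes and 0 of 13 in Treg; their part in the results was not tested.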

How the data were processed

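Single-cell 5′ RNA sequencing was made of 4 libraries, each of 6 pooled mice. The deposited files are matrices of UMI counts per gene and barcode, which the authors made with Cell Ranger 7.0.0 on GRCm38, per the submitters' processing notes; whether introns or strand were used is not given in the sources used here. The matrices hold 32285 genes and 8132 to 10158 barcodes per library. Barcodes were kept from 300 detected genes upward if 13 mitochondrial genes took no more than 10% of their UMIs.

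Gates were at least 3 of 6 T cell, 2 of 4 NK, 4 of 8 phagocyte and 4 of 8 neutrophil markers, with other gates for dendritic, plasmacytoid dendritic, B, basophil or mast and melanoma cells. CD8 T cells had at least 2 Cd8a or Cd8b1 UMIs and no Foxp3 UMI, and Treg at least 1 Foxp3 UMI with fewer than 2 CD8 UMIs. Gate thresholds were set after the data were seen. Cells of 2 or more gates were left out as possible doublets, and no doublet caller was run. Phagocytes with at least 16 C1q UMIs per 10000 formed the macrophage side; otherwise 2 non-classical or 4 classical UMIs per 10000 set the side.

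UMIs were summed per class and library. A gene was compared with at least 50 UMIs over both libraries and counted as higher past 2-fold. Named genes were up to 10 per class and direction, ranked by the interval bound nearest to 0, with at least 50 CPM and 30 UMIs in the higher library and 0.2 of the level of the class that holds most. Members of the gene lists are named besides. Intervals are 95% Poisson for levels, conditional binomial for ratios and Clopper-Pearson for shares, and cover counting error only. For shares of cells with a transcript, cells were thinned to 4000 (T and NK cells), 5000 (phagocytes) or 1500 (neutrophils) UMIs. The cells, genes and 31 gene lists were chosen with earlier results of these data known. The computation was tested on simulated data with Poisson counting error only. These hold no differences between cells, mice or libraries, so the test bears on the arithmetic and not on the results. Computation used numpy 2.4.6 and scipy 1.17.1 in Python 3.11.15, with pandas 2.3.3 for tables and matplotlib 3.10.9 for plots. Gene coordinates come from a GENCODE annotation of GRCm38.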

Additional observations from a re-analysis of the deposited data

Results flagged for a closer look

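In 4 genes the log2 ratio of CD40 to PD1 antibody was past 2-fold with its whole interval, and with at least 50 CPM, 30 UMIs and a share of 0.2 of the top class's level in the higher library, in opposite directions in a pair of classes; these differences between classes were not tested. Gbp2 was at 1.62 in neutrophils (1142 against 373 CPM) and -1.43 in phagocytes (462 against 1244 CPM). Gbp4 was at 4.23 in neutrophils (350.0 against 18.6 CPM) and -1.07 in phagocytes (62.8 against 132 CPM). The control was below both single agents for both genes in both classes, with Gbp4 at 3.94 and 34.7 CPM.

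Emb, an adhesion protein, was at 1.32 in CD8 T cells (151 against 60.6 CPM, control 91.0) and -1.24 in NK cells (127 against 299.5 CPM, control 336). With equal weight per cell Emb was at 0.65 in CD8 T cells, short of 2-fold. Ccl1 was at 7.28 in NK cells, with 94.2 CPM after CD40 antibody and none after PD1 antibody, and at -1.76 in CD8 T cells (26.4 against 89.4 CPM). The NK value takes a floor of 3 UMIs for PD1, has a lower bound of 6.97 and came from 1 cell. In CD8 T cells, 2 CD40 cells held 50% of the Ccl1 UMIs of that class.

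Other named genes were past 2-fold in opposite directions without meeting that rule, among them Pclaf (2.94 in NK cells, -1.07 in Treg), Mcm5 (1.07 and -1.19), Nrp1 (1.23 and -1.33), Sdc4 (1.76 in Treg, -1.37 in NK cells) and Ctla2a (1.03 and -1.25).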

How the results depend on the processing

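No paired analysis was possible because each group is 1 library. Of 1168 single-gene values under other settings 819 moved by less than their interval, 343 moved beyond it and 6 changed sign. Among the 819 are 100 values at a minimum of 20 UMIs and 93 at 200 UMIs, which these settings cannot change. Of 737 list medians under other settings 59 changed sign, 6 of them in lists whose median was at least 0.3 in size. Past 2-fold in the same direction were 95 of 97 named genes without the top cell and 98 of 99 with stricter gates. These were 89 of 100 with equal weight per cell, 86 of 96 after thinning and 91 of 98 without the cells of most UMIs. They were 81 of 90 without dividing cells and 75 of 100 with cells of 2 gates kept. Within macrophage, classical and non-classical sides these were 17 of 20, 11 of 18 and 7 of 17. Totals below 100, or below 20 within the sides, leave out named genes not compared under that setting. Without the top cell, Ccl1 in NK cells and Prtn3 and Elane in neutrophils were left out. They kept 3, 5 and 0 CD40 UMIs and no PD1 UMI, so their results rested on that cell. The genes past 2-fold in either direction numbered 515 in CD8 T cells, 736 in NK cells, 273 in Treg, 879 in phagocytes and 405 in neutrophils. After thinning they were 246 in CD8 T cells, 368 in NK cells, 152 in Treg and 214 in neutrophils. At a minimum of 20 UMIs they were 870, 1138, 654 and 940 in these classes, and at 200 UMIs 236, 281, 35 and 95, with 575 in phagocytes. With dividing cells left out they were 331 in CD8 T cells, 339 in NK cells and 558 in phagocytes, and within classical and non-classical monocyte-side cells 404 and 282. With phagocytes out of the denominator, chosen after seeing the data, the log2 ratio of shares was 0.90 for CD8 T cells and -0.64 for NK cells. Signs changed with cells of 2 gates kept for glycolysis in Treg (-0.060), neutrophil maturation (0.28) and inflammatory cytokine (0.37) genes in neutrophils and Ltf (-1.17). The neutrophil granule median was -0.13 without the 5% of cells with most UMIs and -0.010 without dividing cells, where Penk in CD8 T cells was at 0.29 and Mcm5 in Treg at 0.066. In classical monocyte-side cells Ctsk was at -0.83, Acp5 at -0.14 and Serpinb6a at -0.028, and in non-classical ones MHC class II was at 0.088. The cause of these changes was not tested. Treg (121 CD40 cells) and neutrophils (429018 PD1 UMIs) were the shallowest classes compared, and differences below 2-fold in low genes were not detectable there.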

Other observations

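Several smaller gates were less frequent with CD40 antibody. Dendritic cells, which prime T cells, made up 0.405% (0.277 to 0.571) of kept cells after CD40 antibody and 2.48% (2.18 to 2.80) after PD1 antibody, 6.12-fold more. CD4 T cells without Foxp3 were at 0.835% and 1.75%, B cells at 0.632% and 1.39%, and plasmacytoid dendritic cells, a source of type I interferon, at 0.202% and 0.584%. In each of these gates the combination lay below the PD1 library, and the control above it except for plasmacytoid cells (0.510%).

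Gated dendritic cells carried more Cd40 transcript in the CD40 than in the PD1 library, though the kinds passing the gate were not compared. Its level in that gate was 153 CPM in control tumours, 844 after CD40 antibody (512 UMIs of 32 cells), 147 after PD1 antibody (709 UMIs of 246 cells) and 901 after both. Cd274 was at 404 and 207 CPM there and Pdcd1lg2 at 84.0 and 85.9 CPM, the latter with intervals that overlap. In B cells Cd40 was at 105 and 90.2 CPM, and Cd40lg, its ligand, stood at 126 and 139 CPM in CD4 T cells, again with intervals that overlap. Pdcd1 was at 166 CPM in Treg after CD40 antibody and 255 CPM after PD1 antibody, and at 369.7 and 305 CPM in CD4 T cells.

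The control library was compared with both for the genes past 2-fold. In NK cells its level was nearer to PD1 than to CD40 on the log2 scale for 364 of 397 genes higher with CD40 antibody and for 299 of 339 higher with PD1 antibody. In Treg these counts were 68 of 79 and 154 of 194. In CD8 T cells, phagocytes and neutrophils the control was nearer to PD1 for 175 of 264, 303 of 556 and 157 of 280 genes higher with CD40 antibody, and for 133 of 251, 180 of 323 and 84 of 125 higher with PD1 antibody. The same shares over all genes compared were not computed, so no background stands beside these counts. The genes were also chosen by the ratio of CD40 to PD1. Counting error in the shallower library can therefore by itself place the control nearer to the other. In Treg the CD40 library held 1081684 UMIs, against 3691091 for PD1 and 3799140 for the control, and no conclusion is drawn from the Treg counts. With dividing cells left out, 108 NK genes in place of 397 were at least 2-fold higher with CD40 antibody.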
